A study of Homo sapiens with 3 samples.

Results

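The 9 genes described here encode enzymes of serine synthesis and of the folate one-carbon cycle: PHGDH, PSAT1, PSPH, SHMT1, SHMT2, MTHFD1, MTHFD2, MTHFD1L and ALDH1L2. They were chosen by name, from 20046 genes in the array annotation, after differences between the arrays had been seen, so the differences from DMSO below describe them and support nothing further. All 13 array probes that the annotation gives to these genes were taken, and 6 of the genes had a single array probe. The cells are given as PLC-PRF-5, an established human hepatoma line, a single line and not liver tissue. RNA was collected after 24 h with the sorafenib probe, with sorafenib or with DMSO, the solvent, and each condition had 1 Illumina beadchip array. Sorafenib is an inhibitor of several kinases that is used in liver cancer. The sorafenib probe is a derivative of it that carries a photoaffinity group and a terminal alkyne. The dose was the same for the compounds but is unsettled, at 10 μM in the labels of each sample and 50 μM in their treatment protocol. Without replicates no test could be made, and only the size of each difference is given. The same DMSO array served both compounds, so an error on it would enter both differences alike.

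Mammalian cells make serine from 3-phosphoglycerate, an intermediate of glycolysis, in 3 steps catalysed by PHGDH, PSAT1 and PSPH. Serine hydroxymethyltransferases then pass a carbon from serine to tetrahydrofolate, which leaves glycine, and the MTHFD enzymes oxidise or reduce that carbon for the synthesis of purines, thymidylate and formate. A mitochondrial arm (SHMT2, MTHFD2, MTHFD1L, ALDH1L2) and a cytosolic arm (SHMT1, MTHFD1) run in parallel. Several of these genes, PHGDH, PSAT1, SHMT2 and MTHFD2 among them, are known targets of the transcription factor ATF4, and the pathway is known for its high activity in proliferating tumour cells.

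The upstream sequences of 4 members are shown so that the genes that stood highest above DMSO (PHGDH and PSAT1) can be read beside a mitochondrial folate gene (MTHFD2) and the member that was lower than DMSO with both compounds (MTHFD1). Each is the 250 bases before the start site in RefSeq (GRCh38.p14, plus strand), and capitals mark the letters CCAAT, the CCAAT box, or CACGTG, the E-box. The windows are chr1:119711684-119711933 for PHGDH, chr9:78296875-78297124 for PSAT1, chr2:74198365-74198614 for MTHFD2 and chr14:64388103-64388352 for MTHFD1.
PHGDH: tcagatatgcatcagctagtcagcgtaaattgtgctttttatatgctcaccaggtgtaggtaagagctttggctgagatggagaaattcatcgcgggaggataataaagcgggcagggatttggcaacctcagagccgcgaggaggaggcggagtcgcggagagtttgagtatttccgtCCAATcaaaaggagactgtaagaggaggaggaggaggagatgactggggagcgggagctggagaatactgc
PSAT1: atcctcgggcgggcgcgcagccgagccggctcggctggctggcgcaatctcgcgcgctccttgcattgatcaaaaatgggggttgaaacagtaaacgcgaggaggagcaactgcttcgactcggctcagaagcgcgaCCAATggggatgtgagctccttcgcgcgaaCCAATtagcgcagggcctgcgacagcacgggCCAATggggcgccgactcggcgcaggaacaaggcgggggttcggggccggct
MTHFD2: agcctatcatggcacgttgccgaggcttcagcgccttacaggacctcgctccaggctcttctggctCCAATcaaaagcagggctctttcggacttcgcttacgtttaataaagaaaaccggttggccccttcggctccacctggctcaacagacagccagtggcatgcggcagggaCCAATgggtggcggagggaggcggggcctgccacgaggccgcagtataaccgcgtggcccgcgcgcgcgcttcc
MTHFD1: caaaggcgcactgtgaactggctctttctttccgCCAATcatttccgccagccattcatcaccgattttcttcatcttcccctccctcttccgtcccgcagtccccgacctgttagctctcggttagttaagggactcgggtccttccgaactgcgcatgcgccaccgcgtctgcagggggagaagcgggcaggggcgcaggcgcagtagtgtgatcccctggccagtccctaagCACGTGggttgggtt

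PHGDH has 1 CCAAT box on the plus strand, at -71 from the start site, PSAT1 has 3, at -113, -83 and -52, and MTHFD2 has 2, at -184 and -74. In MTHFD1 the box lies at -216 and the E-box at -15. The CCAAT letters were searched for after the sequences had been read. On either strand they occur in 34.6% of 35116 promoter windows of 300 bases (250 before and 50 after the start), and in each of the 6 members in the RefSeq table. The unit of the member count is the gene and that of the share is the window, and 3 overlapping windows of MTHFD1L hold the same CCAAT letters. The G and C content of the 250 bases was 51.2% in PHGDH, 65.6% in PSAT1, 62.4% in MTHFD2 and 60% in MTHFD1, beside a median of 58% over all windows.

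The core of the element that ATF4 binds with C/EBP proteins, TGATGNAA on either strand, was found in 1 of the 6 members, MTHFD1L, where 3 overlapping windows hold the same letters, and in 3.62% of all windows, a share per window and not per gene. It stands at -129 from 1 of the MTHFD1L start sites, in the following 30 bases at chr6:150866346-150866375 (plus strand), in which it is in capitals.
MTHFD1L: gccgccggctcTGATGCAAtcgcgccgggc

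The E-box CACGTG was in MTHFD1 and MTHFD1L and in 7.26% of all windows. The antioxidant response element TGACNNNGC was in MTHFD2, after the start site on the opposite strand, and in 13.3% of all windows. The cAMP response element TGACGTCA was in no member window and in 1.85% of all. These matches describe letters in short windows. No binding was measured, and a site outside the window would not have been seen.

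The intensities below were background corrected, quantile normalized between arrays and are given on a linear scale, and differences are on the log2 scale. They can be compared between arrays for 1 array probe but not between array probes. An array probe with a detection p-value under 0.01 was called above background. Of the 13 array probes of the members, 11 were above background on at least 1 array and 10 on all 3, and 8 of the 9 genes had an array probe above background on every array. Over the whole chip 32.8% of the array probes were above background with the sorafenib probe, 32.7% with sorafenib and 32.3% with DMSO, which left 10396 genes, each given by its brightest array probe. The labelled cell type was checked against 20 hepatocyte and hepatoma markers with an array probe. Only 8 were above background, KRT8, KRT18, FOXA2, ALB, CPS1, EPCAM, FGA and APOH, whereas AFP, APOA1, TTR and TF were above background on no array. Most of the secreted hepatocyte proteins thus gave no signal above background on these arrays, and the check does not establish the labelled cell type. The summed intensity of the 8 was 5166 with the sorafenib probe, 5295 with sorafenib and 5708 with DMSO, most of it from KRT8 and FOXA2. ALB, FGA and APOH were dim, at 52 or less on each array. Of 12 markers of other cell types, 4 were above background, CD14, CD68, ACTA2 and COL1A1, with a summed intensity of 910 with the sorafenib probe, 943 with sorafenib and 1026 with DMSO, and PTPRC, CD3E, PECAM1 and VWF were not. COL1A1 was above background on the sorafenib probe array alone, at 36.5. ACTA2 and CD14 differed with the compounds, with log2 differences from DMSO of -0.53 and 0.56 with the sorafenib probe and -0.63 and 0.75 with sorafenib, and their part in the results was not tested. Among the hepatocyte markers APOH was above background with DMSO only, at least 1.53-fold lower with the sorafenib probe and at least 1.52-fold lower with sorafenib, and FGA had log2 differences of 0.53 and 0.43. Their part was not tested either.

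The serine synthesis genes stood highest of the members. PHGDH, the first enzyme, which oxidises 3-phosphoglycerate, had a normalized intensity of 2542 with the sorafenib probe, 2648 with sorafenib and 959 with DMSO. Both treated arrays were clearly above DMSO and close to each other. The log2 difference from DMSO was 1.41 with the sorafenib probe (2.65-fold) and 1.47 with sorafenib (2.76-fold), and before normalization between arrays the background-subtracted intensities were 2462, 2459 and 1023 in the same order. Counted from the highest difference, PHGDH was gene 10 of 8923 with the sorafenib probe and gene 5 of 8911 with sorafenib, among genes measured above background on both arrays.

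PSAT1, the transaminase of the second step, had 2143 with the sorafenib probe, 2338 with sorafenib and 1188 with DMSO. It was 1.8-fold higher with the sorafenib probe and 1.97-fold higher with sorafenib (log2 differences of 0.85 and 0.98), just short of 2-fold with sorafenib. A second array probe, designed on another transcript of PSAT1, was not above background on any array, with detection p-values of 0.518, 0.805 and 0.648, so the values rest on 1 array probe.

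PSPH, the phosphatase that releases serine, had 401 with the sorafenib probe, 425 with sorafenib and 282 with DMSO by its brighter array probe. The log2 differences were 0.51 (1.42-fold) and 0.59 (1.51-fold), or 0.32 and 0.37 without normalization between arrays. Its second array probe gave 106, 125 and 78.4, with differences of 0.44 and 0.68, so both array probes were higher with both compounds. Across the 3 enzymes the difference was smaller at each step of the pathway, with either compound.

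**Figure D1:**
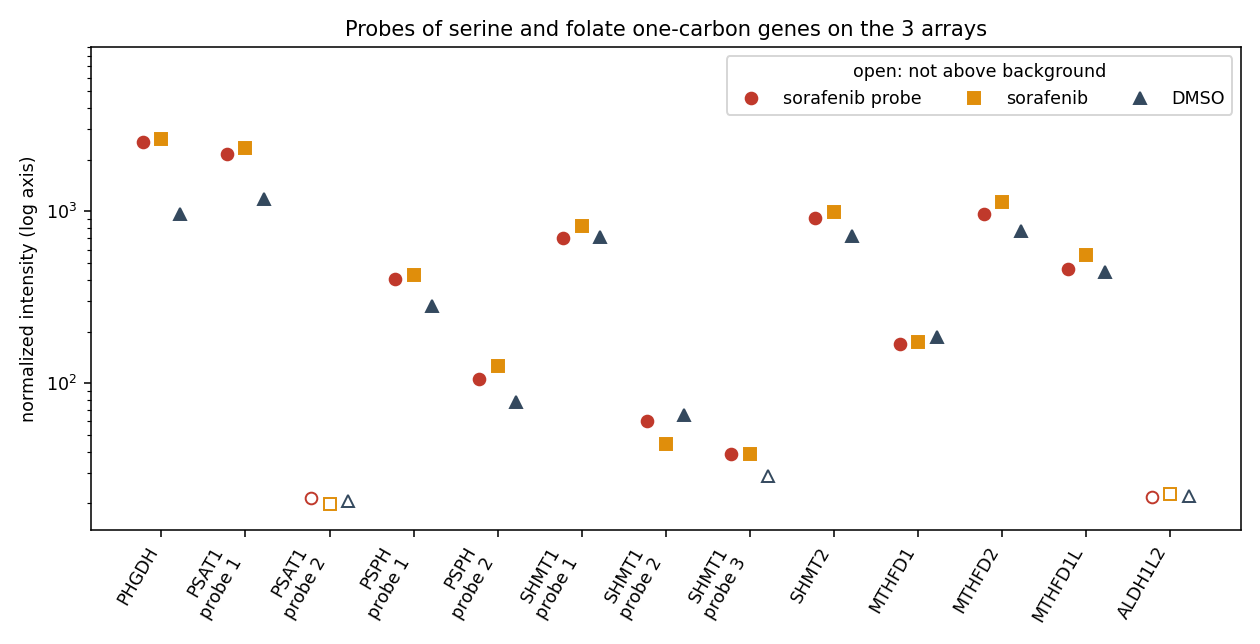
Normalized intensity (log axis) of the 13 array probes of the members on the sorafenib probe, sorafenib and DMSO arrays, 1 point per array, with open symbols where an array probe was not above background. PHGDH had 2542 and 2648 on the treated arrays and 959 on the DMSO array. Heights can be compared within an array probe only.

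In the mitochondrial arm 3 of the 4 members were measured, and all 3 were above DMSO with both compounds by smaller amounts. SHMT2, which moves the carbon of serine onto folate, had 916 with the sorafenib probe, 990 with sorafenib and 726 with DMSO (log2 differences of 0.34 and 0.45). MTHFD2, which oxidises the folate-bound carbon, had 969, 1140 and 771 in the same order. Its log2 difference was 0.33 with the sorafenib probe (1.26-fold) and 0.56 with sorafenib (1.48-fold). Without normalization between arrays these differences were smaller, 0.17 and 0.23 for SHMT2 and 0.16 and 0.34 for MTHFD2.

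MTHFD1L, the enzyme that releases formate, had 464 with the sorafenib probe, 561 with sorafenib and 446 with DMSO. The log2 differences from DMSO were 0.06 with the sorafenib probe and 0.33 with sorafenib, and -0.12 and 0.12 without normalization between arrays, where the DMSO array lay between the other arrays (background-subtracted intensities of 432, 513 and 470). ALDH1L2, the mitochondrial formyltetrahydrofolate dehydrogenase, was not above background on any array (detection p-values of 0.483, 0.301 and 0.336), so no difference is given.

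By their brightest array probes the cytosolic enzymes were both below DMSO with the sorafenib probe and had opposite signs with sorafenib. SHMT1 had 701 with the sorafenib probe, 818 with sorafenib and 708 with DMSO by its brightest array probe, log2 differences of -0.01 and 0.21, and the second of these was -0.01 without normalization between arrays. Its 3 array probes disagreed. The second, designed on another transcript, gave 60.7, 44.7 and 65.8 (-0.12 and -0.56), and the third gave 38.6, 38.7 and 29.1, where DMSO was not well above background (detection p-value 0.0416), so that it was at least 1.11-fold higher with each compound. The DMSO level in that bound is the lowest signal above background on that array, or the array probe's own signal if higher.

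MTHFD1, the trifunctional enzyme of the cytosolic arm, had 169 with the sorafenib probe, 173 with sorafenib and 185 with DMSO (log2 differences of -0.13 and -0.10). It was the only member lower than DMSO with both compounds by its brightest array probe, and it lay within the middle 95% of genes of like intensity. Without normalization between arrays SHMT1 was lower with both as well (-0.19 and -0.01). Copies of some members that are pseudogenes in RefSeq, 7 of MTHFD2, 4 of PSAT1 and 1 each of PSPH, SHMT1 and MTHFD1, could share array probe signal, which was not tested.

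**Figure D2:**
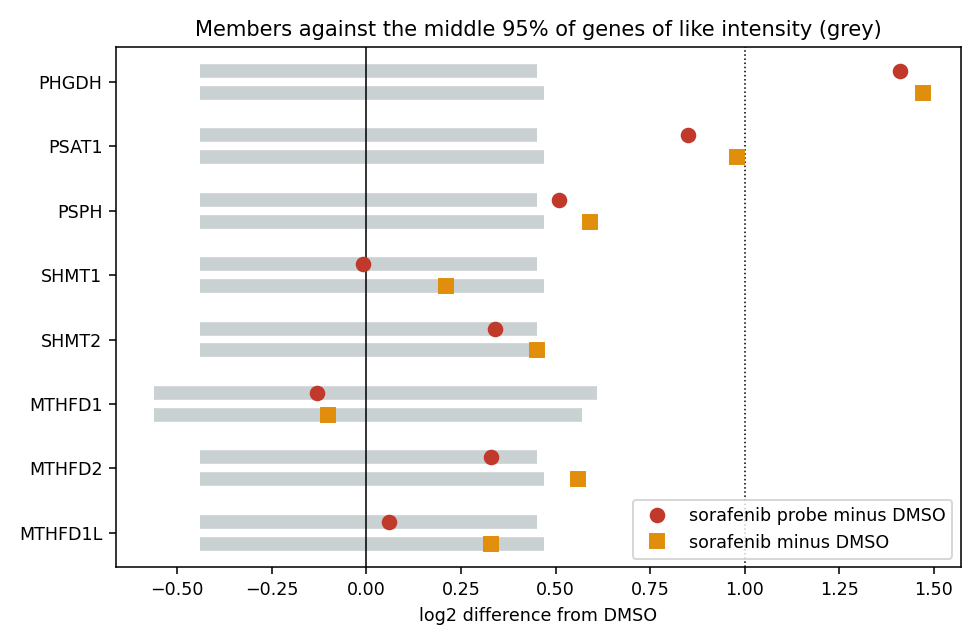
Log2 differences from DMSO of the 8 measured members with the sorafenib probe and with sorafenib, over grey bars that span the middle 95% of genes in the same class of mean intensity. By the brightest array probe PHGDH, PSAT1 and PSPH lie beyond the bars with both compounds and MTHFD2 with sorafenib alone. The dotted line marks 2-fold.

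Without replicates, the scatter over other genes is the nearest available guide to size. Genes were split into 3 equal classes by mean intensity, and all measured members but MTHFD1 (middle class) fell in the brightest. The middle 95% of that class lay between -0.44 and 0.45 with the sorafenib probe and between -0.44 and 0.47 with sorafenib. By their brightest array probes PHGDH, PSAT1 and PSPH were beyond it with both compounds and MTHFD2 with sorafenib. SHMT2, MTHFD1L and SHMT1 were within it. PSPH and MTHFD2 passed by small margins, and the ranges were not drawn for the alternative settings. For MTHFD1 the middle class gave -0.56 to 0.61 with the sorafenib probe and -0.56 to 0.57 with sorafenib. The second PSPH array probe has an intensity of that class. Its difference of 0.44 lay within the range with the sorafenib probe, and its 0.68 lay beyond the range with sorafenib.

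By role, the median log2 difference from DMSO of the 3 serine synthesis genes was 0.85 with the sorafenib probe and 0.98 with sorafenib. It was 0.33 and 0.45 for the 3 measured mitochondrial folate genes, and -0.07 and 0.06 for the 2 cytosolic ones. Over all 8 measured members the median was 0.33 (range -0.13 to 1.41) with the sorafenib probe and 0.51 (-0.10 to 1.47) with sorafenib, beside 0.00 over all genes in both comparisons. With the sorafenib probe 6 of the 8 lay above 0, as did 48.9% of all genes, and with sorafenib 7 did, as did 48.7% of all genes. These counts were 5 and 7 with median scaling, where the medians of all genes were -0.08 and -0.11. They were 5 and 6 without normalization, where those medians were -0.16 and -0.19. The shares of all genes above 0 are not given for these settings.

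At 2-fold, 1 member (PHGDH) was higher with the sorafenib probe, where 0.259% of 10055 genes were, and the same member was higher with sorafenib, where 0.169% of 10052 genes were. Over all genes the 2-fold differences ran 26 higher and 17 lower with the sorafenib probe, and 17 higher and 12 lower with sorafenib. Median scaling gave 21 higher and 20 lower, and 14 higher and 23 lower, and no normalization gave 17 higher and 34 lower, and 11 higher and 40 lower. At 1.5-fold, 2 members (PHGDH and PSAT1) were higher with the sorafenib probe, beside 2.39% of all genes, and 3 (with PSPH) were higher with sorafenib, beside 2.23%. Because the members were picked with these differences in view, the percentages give scale only.

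**Figure D3:**
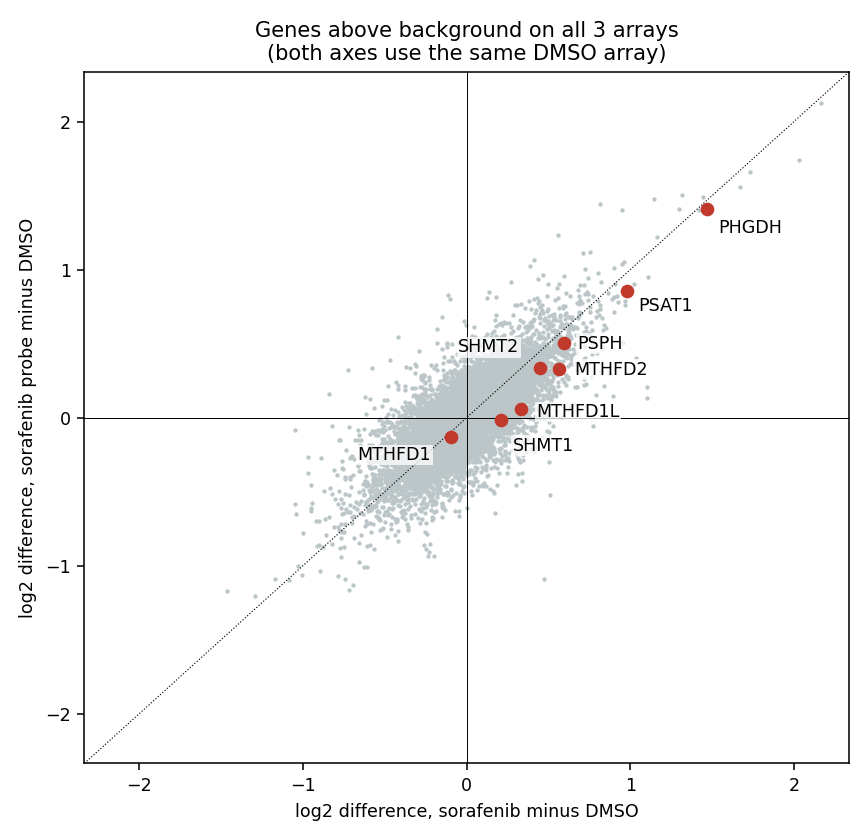
Log2 difference from DMSO with the sorafenib probe (vertical) against that with sorafenib (horizontal) for 8750 genes above background on all 3 arrays (grey), with the 8 measured members in red and the line of equal differences dotted. Both axes use the same DMSO array, so they share its error, and all 8 members lie below the line.

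The sorafenib probe carries the photoaffinity group and the terminal alkyne, and the compounds were compared directly at the same dose and time as 1 pair. All 8 measured members were lower with the sorafenib probe than with sorafenib, beside 50.1% of all genes, with a median log2 difference of -0.12 (range -0.27 to -0.03). The number below 0 was 6 with median scaling and 7 without normalization, so this order of signs depends on the scaling. The median of all genes was 0.03 with either setting. The widest gap was at MTHFD1L, with 464 with the sorafenib probe and 561 with sorafenib (log2 difference of -0.27, 1.21-fold lower). MTHFD2 followed at -0.23, then SHMT1 at -0.22, where its second array probe gave 0.44.

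PHGDH was at -0.06 and PSPH at -0.09, although the second PSPH array probe gave -0.24. PSAT1 was at -0.13, SHMT2 at -0.11 and MTHFD1 at -0.03. The middle 95% of bright genes in this comparison ran from -0.27 to 0.27, so MTHFD1L lay at its edge and the rest within it. No member was 2-fold higher or lower, as were 0.0199% and 0.0298% of all genes. With 1 array per compound no interval of these differences can be given, and their small size does not show that the compounds act alike.

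**Figure D4:**
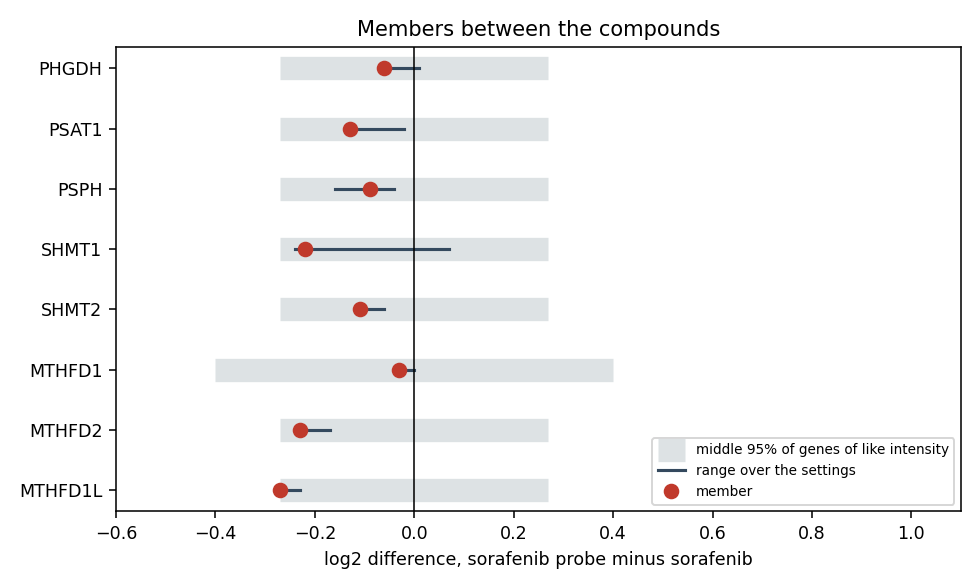
Log2 difference of each measured member between the sorafenib probe and sorafenib (points), with the range over the processing settings other than the second array probe (lines) and the middle 95% of genes of like intensity (grey bars). All points lie between -0.27 and -0.03, and the lines of PHGDH and SHMT1 reach past 0 while that of MTHFD1 ends at it.

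The genes whose pattern was most like that of PHGDH, by the Euclidean distance of the 2 log2 differences from DMSO over 3 arrays and 8750 genes, were CBS, S100P, TRIB3, NIBAN1 and NNMT. CBS, which condenses serine with homocysteine, was nearest (distance 0.0448), with 380 with the sorafenib probe, 384 with sorafenib and 143 with DMSO. For PSAT1 they were TMEM145, CFD, DHRS3, H2AC25 and AATK, at distances of 0.0269 to 0.0871. With 3 arrays such a likeness rests on 2 numbers per gene.

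The neighbouring pathways were looked at through lists drawn up with earlier results known. Of 18 other folate enzymes and carriers, 15 had an array probe and 10 gave a value, with median log2 differences from DMSO of -0.04 with the sorafenib probe and -0.05 with sorafenib. PDF, the mitochondrial peptide deformylase, had 48.2, 66.8 and 41.9 with the sorafenib probe, sorafenib and DMSO (0.20 and 0.67) and was the 1 gene of the list past 1.5-fold higher, with sorafenib. DHFR2, a mitochondrial dihydrofolate reductase, had differences of 0.50 and 0.27. TYMS, which makes thymidylate with a folate-bound carbon, had -0.34 and -0.27, and SLC46A1, a folate transporter, had -0.38 and -0.20.

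The 12 kept genes that use or carry serine and glycine had medians of -0.03 with the sorafenib probe (12 values) and -0.12 with sorafenib (10 values). The subunits of the glycine cleavage system went different ways. GLDC, which takes the carboxyl group off glycine, had -0.12 and -0.28, DLD, the dehydrogenase, had -0.33 and -0.11, and GCSH, the carrier, had 0.29 and 0.22 by its brightest array probe but -0.01 and -0.20 by the next. SPTLC1, which joins serine to palmitoyl-CoA for sphingolipids, had -0.23 and -0.30.

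In the methionine cycle, which takes methyl groups from folate, the medians over 9 genes were 0.04 and -0.02. AHCY, which clears S-adenosylhomocysteine, had the highest difference of the list, with 1796 with the sorafenib probe, 1782 with sorafenib and 1181 with DMSO (0.60 and 0.59). It was the 1 gene of this list past 1.5-fold higher with each compound. MTR, methionine synthase, had 0.18 and 0.32, and MTRR, its reductase, had 0.15 and 0.26, though the second MTRR array probe gave -0.14 with the sorafenib probe. CHDH, which oxidises choline, was at least 1.59-fold lower with the sorafenib probe, where it was not above background, and had a log2 difference of -0.57 with sorafenib.

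Purine synthesis, which draws 1-carbon units from formyl-folate, had medians of -0.01 and -0.04 over 12 genes. IMPDH2, on the guanine branch, had 0.33 and 0.21, GMPS, the next enzyme, had -0.29 and -0.25, and PRPS1, which makes the ribose precursor, had -0.21 and -0.27. ADSS1, on the adenine branch, had -0.57 and -0.45. Among 9 glycolytic enzymes around 3-phosphoglycerate the medians were -0.05 and -0.01, and no gene of either list was 1.5-fold higher. PGK1, which forms 3-phosphoglycerate, had 0.29 and 0.30, although its second array probe gave -0.18 and -0.12, and BPGM, ENO2 and ENO3 had differences between -0.38 and -0.19.

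Regulators of the serine pathway had medians of 0.37 with the sorafenib probe (8 values) and 0.11 with sorafenib (9 values), with 1 gene of the list 2-fold higher with each compound. That gene was TRIB3, a pseudokinase induced by ATF4, with 849 with the sorafenib probe, 785 with sorafenib and 319 with DMSO (1.41 and 1.30). ATF4 itself had 4578, 4430 and 3676 in the same order, differences of 0.32 and 0.27 by its brightest array probe and 0.29 and 0.45 by the next. CEBPB, a partner of ATF4, had 0.54 and 0.75. MDM2, which DMSO cells did not show above background, was at least 1.33-fold higher with the sorafenib probe and at least 1.1-fold higher with sorafenib. The regulators named so far are those of largest mean difference, and 2 others lay below 0 with each compound. DDIT3, also on the list, had 0.47 with the sorafenib probe and 0.04 with sorafenib. Whether ATF4 had a part in the differences of the members was not tested.

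**Figure D5:**
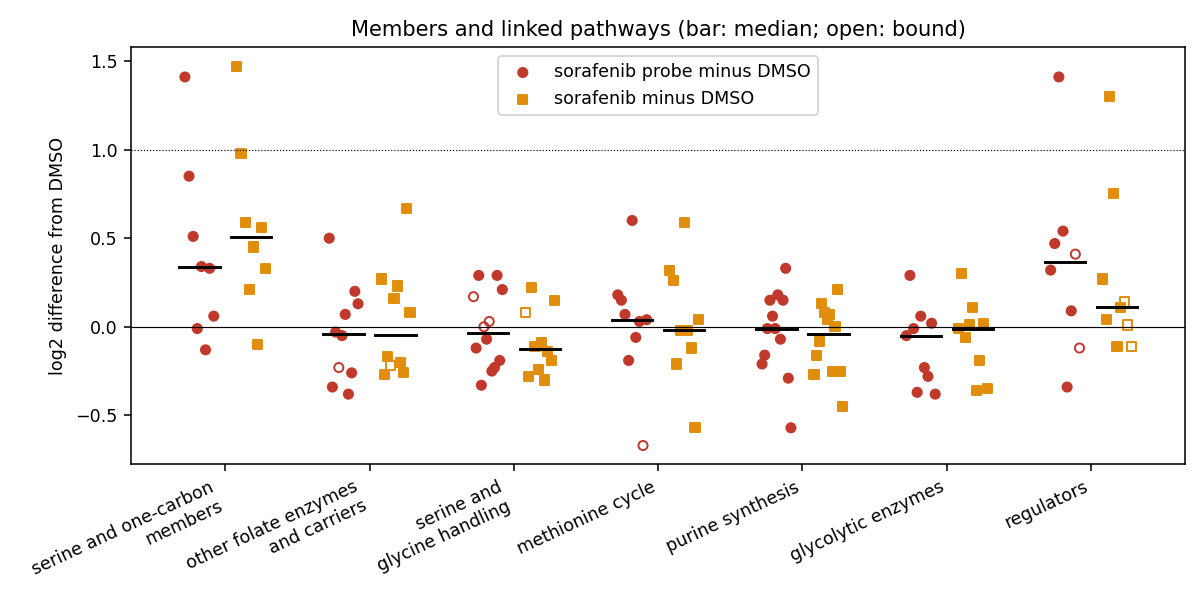
Log2 difference from DMSO of each gene with the sorafenib probe (left of each pair) and with sorafenib (right), for the members and 6 linked lists, with bars at the medians and open symbols at bounds. The member medians are 0.33 and 0.51, and those of the regulators are 0.37 and 0.11. The medians of the folate, serine and glycine, methionine, purine and glycolytic lists lie between -0.12 and 0.04.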

How the data were processed

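Total RNA of PLC-PRF-5 cells was labelled with biotin and hybridised to 3 Illumina arrays of 47323 array probes, 1 per condition, and precision is limited by that number. The authors deposited intensities after background subtraction, not normalized between arrays, which were used here, and a detection p-value per array probe. A further table the authors deposited as not normalized was found to be quantile normalized with a floor of 1 (98.2% of the sorted values above the floor were equal on all arrays) and served as an alternative. The sources used here do not give the scanner software or the genome build, and no array probe coordinates are printed.

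Background was modelled by normexp from the detection p-values (offset 16), and quantile normalization and log2 conversion followed (R 4.3.3, limma 3.58.1). Python 3.11.15 with pandas 2.3.3 and numpy 2.4.6 did the rest. The 17427 array probes above background (detection p-value under 0.01) on 1 or more arrays were kept. The platform annotation gives 1 symbol to 30113 array probes, several to 8 and lists no entry for 17202, and 99.9% of those with 1 symbol matched RefSeq GRCh38.p14. The brightest kept array probe represents a gene. Where 1 array of a pair was not above background, the larger of its own signal and that array's lowest signal above background took its place, and the difference is a bound.

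The members and all lists were chosen with earlier results of these data known. The genes named are all members, in each list up to 4 genes of largest mean difference from DMSO, list genes past 2-fold, and the 5 genes nearest to PHGDH and to PSAT1. A few markers and the regulator DDIT3 are named outside the rule, after their values were seen. Alternatives were the authors' table, an offset of 50, median scaling, no normalization, a detection limit of 0.05, no detection filter, detection on all 3 arrays, array probes averaged per gene, the second array probe, measured values in place of bounds, and 1.5-fold and 3-fold limits. A planned comparison of the proteins was not run, since no protein sequences were used here. The steps were tested on simulated data.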

Additional observations from a re-analysis of the deposited data

How the results depend on the processing

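No paired analysis was possible because each condition had 1 array, and no array could be left out. Of 222 alternative values of single members, 11 moved by more than 0.204 on the log2 scale and 211 by less. That limit is the root mean square difference between the compounds over all genes. Many of the 211 could not move. The measured members were above background on every array, so the detection settings and bounds returned the values given above. Averaging did the same for members with 1 kept array probe. Every measured member moved with sorafenib without normalization, PHGDH from 1.47 to 1.25 and MTHFD1 from -0.10 to -0.31. The other moves were of SHMT1. A sign change was counted as a reversal only for a difference past 2-fold, and none of those changed sign. PHGDH kept a log2 difference of 1.25 to 1.42 with the sorafenib probe and 1.25 to 1.49 with sorafenib, and PSAT1 had at least 0.72 and 0.74. SHMT1 and MTHFD1L changed sign without normalization as given with their values. With median scaling MTHFD1L was also below 0 with the sorafenib probe (-0.03), and PHGDH was 0.01 between the compounds in place of -0.06. With array probes averaged SHMT1 was 0.09 with the sorafenib probe in place of -0.01. Between the compounds it was then 0.07 in place of -0.22. By its second array probe SHMT1 changed sign with sorafenib (-0.56 in place of 0.21) and between the sorafenib probe and sorafenib (0.44 in place of -0.22). Without normalization between arrays the median of all genes was -0.16 with the sorafenib probe and -0.19 with sorafenib. The members' medians were then 0.17 with the sorafenib probe and 0.29 with sorafenib, which are 0.33 and 0.47 above those of all genes. By the second array probe, which 2 members (PSPH and SHMT1) have, the members' median was 0.06 with sorafenib and 0.10 between the sorafenib probe and sorafenib, and 0 passed 2-fold with either compound. PHGDH, the member past 2-fold, has a single array probe and is not among these 2, so that count was fixed by the setting. At 1.5-fold 2 members passed with the sorafenib probe and 3 with sorafenib, and at 3-fold 0 with either.

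Over all genes 43 passed 2-fold with the sorafenib probe, 29 with sorafenib and 5 between the compounds. These numbers were 161, 148 and 57 in the authors' table, 12, 12 and 1 with an offset of 50, 86, 67 and 23 with no detection filter, 87, 67 and 23 with measured values in place of bounds, and 9, 8 and 1 by the second array probe. They were 446, 426 and 129 at 1.5-fold and 3, 4 and 0 at 3-fold. Without normalization 51 passed with sorafenib, and between the compounds 11 passed with a detection limit of 0.05 and 3 with detection on all 3 arrays. The cause of these shifts was not tested. The offset shrinks the differences of dim genes, and signal over background sets the limit for ALDH1L2 and for the dim array probes of PSAT1 and SHMT1.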
